A study of Homo sapiens with 6 samples.

Results

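The apolipoproteins are the protein components of plasma lipoproteins, and 10 of their genes were followed here: APOA1, APOA2, APOA4, APOA5, APOB, APOC1, APOC3, APOE, APOH and APOM. They were listed by gene symbol and make up 10 of the 34036 genes in the count table. All 10 had enough counts to be tested, among 14476 tested genes. The libraries came from HepG2, an established human line derived from a hepatocellular carcinoma, which secretes many proteins of the hepatocyte. In the siDGUOK group the cells had received a Dharmacon siGENOME pool of siRNAs against DGUOK, the gene of mitochondrial deoxyguanosine kinase, and in the siControl group a non-targeting siRNA; both were delivered with Lipofectamine RNAiMAX and the cells collected 48 h later. Each group holds 3 libraries of bulk RNA-seq. Titles and library names set the groups, because the field for treatment reads siControl in all 6 libraries. The labels do not say whether the 3 libraries of a group came from separate cultures, so the p-values measure the spread between these libraries, which may be technical. A knockdown with a pool cannot separate the loss of DGUOK from other targets of the same siRNAs, and a tumour line is a limited model of the liver.

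Hepatocytes package triglyceride and cholesterol into lipoprotein particles. APOB forms the scaffold of very-low-density and low-density lipoproteins, whereas APOA1 and APOA2 are the main proteins of high-density lipoproteins; the smaller APOC proteins, APOA5 and APOE exchange between particles and set how fast lipoprotein lipase and hepatic receptors clear them. In the liver these genes are transcribed under hepatocyte factors of the HNF4, C/EBP and FOXA families.

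Total counts per library ran from 10527216 (siControl 3) to 21334876 (siDGUOK 3). Levels are given as CPM, read counts brought to a common library size with edgeR's TMM factors, so a level is a share of the library and not an amount per cell. In bulk RNA, fewer cells that express a gene and less of its mRNA per cell cannot be told apart. A gene was called when the adjusted p fell under 0.05 and the absolute log2 fold change (siDGUOK over siControl) exceeded 0.5. DGUOK itself, read first as a check of the labels, stood at 54.7, 53.5 and 48.5 CPM in siControl 1, 2 and 3 and at 9.12, 10.48 and 6.69 CPM in siDGUOK 1, 2 and 3. Every siDGUOK library was below every siControl library, at 16.7% of the control level by the fitted fold change (edgeR quasi-likelihood test, Benjamini-Hochberg adjusted p = 1.40e-08).

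A pair of siDGUOK libraries stood apart in other respects. Replicate 1 held 109877 counts on T cell receptor gene segments, 0.590% of its total, against 16 to 1333 such counts in the other 5 libraries, and had counts on 21057 genes against 16205 to 17583. Replicate 2 held a summed 59.1 CPM of endothelial markers, against 1.40 to 4.51 CPM elsewhere. Without siDGUOK replicate 1, and likewise without siDGUOK replicate 2, 8 of the 10 apolipoprotein genes were called, against 12.3% and 12.1% of all genes tested in those fits (14% with every library kept). With both left out, an alternative chosen after seeing the data that rests on 1 siDGUOK library assumed to vary like the controls, 7 were called, against 10.52% of all genes tested in that fit, and APOB was not.

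Apolipoprotein mRNA fell across most of the family. Of the 10 genes, 8 were called lower and 0 higher after DGUOK knockdown, against 6.9% of all genes tested called lower and 7.14% called higher (14% in either direction). At mean levels of 10 CPM and above, 9 were apolipoprotein genes and 8 of these were called lower, against 9.27% of all genes at that level. Judged by adjusted p alone, 9 of the 10 were lower, against 9.66% of all genes tested. In 9 of the 10, all 3 siDGUOK libraries lay below all 3 siControl libraries, which held for 17.7% of all genes tested. The median log2 fold change of the 10 was -1.08, beside 0.01 over all genes tested. The exceptions to the call were APOA2, whose change was small, and APOA4, whose libraries were spread widely.

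**Figure D1:**
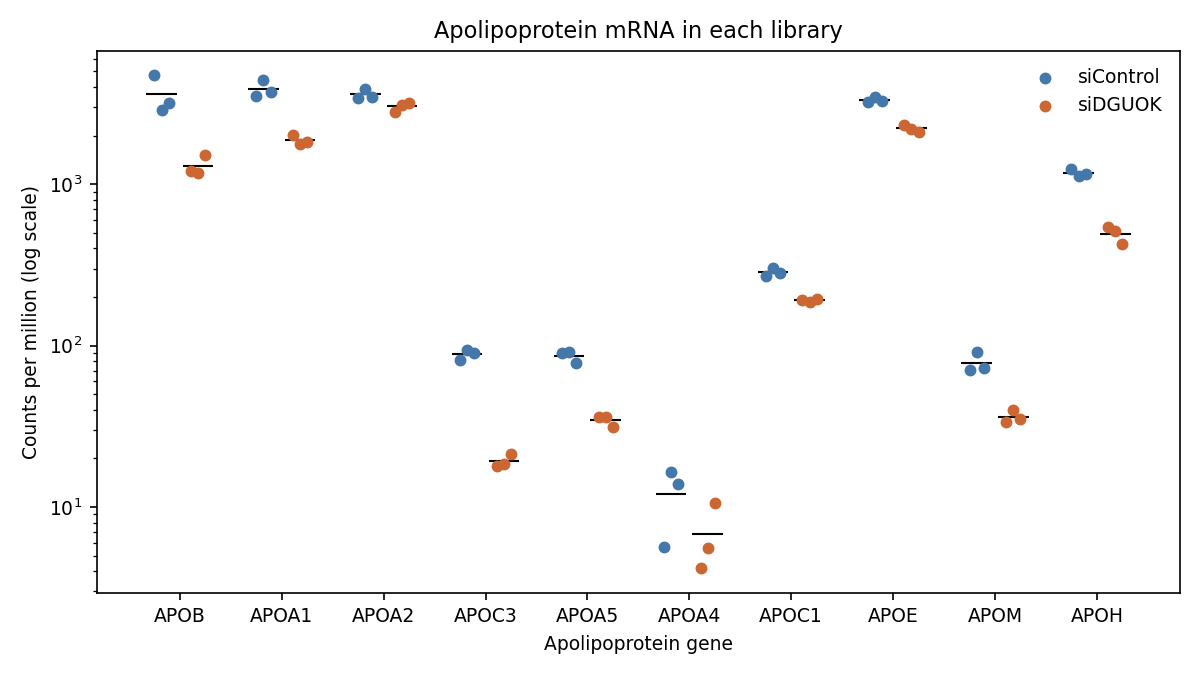
Level of each apolipoprotein gene in each library, in CPM on a log axis; points are the 3 siControl and 3 siDGUOK libraries and black lines are group means. The groups are separate for every gene but APOA4, and the gap is widest for APOC3.

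**Figure D2:**
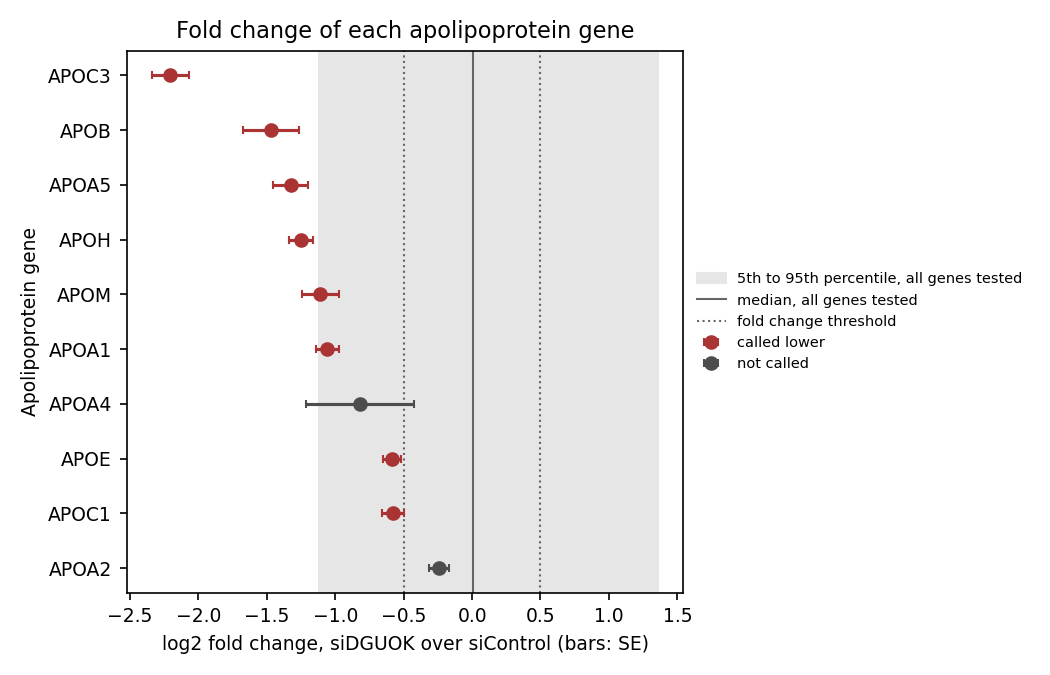
Log2 fold change of each gene with its SE; the grey band spans the 5th to 95th percentile of all genes tested (-1.12 to 1.36) and dotted lines mark the fold change threshold of 0.5 in each direction. APOC3, APOB, APOA5 and APOH lie below the band, and APOA2 lies inside the thresholds.

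The family took a smaller part of the library. The 10 genes together held 1.63%, 1.62% and 1.52% of all counts in siControl 1, 2 and 3, and 0.910%, 0.927% and 0.960% in siDGUOK 1, 2 and 3. The groups did not overlap. Mean shares were 1.59% ± 0.0577 (SD, n = 3) and 0.932% ± 0.0251 (SD, n = 3), a difference of -0.657 percentage points with an exact two-sided permutation p of 0.10, the smallest that 3 against 3 can give. Wilson 95% confidence intervals extended at most 0.0074 percentage points to either side of a library's share, counting error only. Of the summed fall in CPM, APOB carried 33.2%, APOA1 29.3%, APOE 15.9%, APOH 9.82% and APOA2 8.01%. The place of APOB ahead of APOA1 rests on siControl 1, where APOB stood at 4724 CPM against 2877 and 3205 CPM in siControl 2 and 3. Without that library APOA1 would come first. APOA2 made up 22.3% of the siControl sum and 33.0% of the siDGUOK sum.

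**Figure D3:**
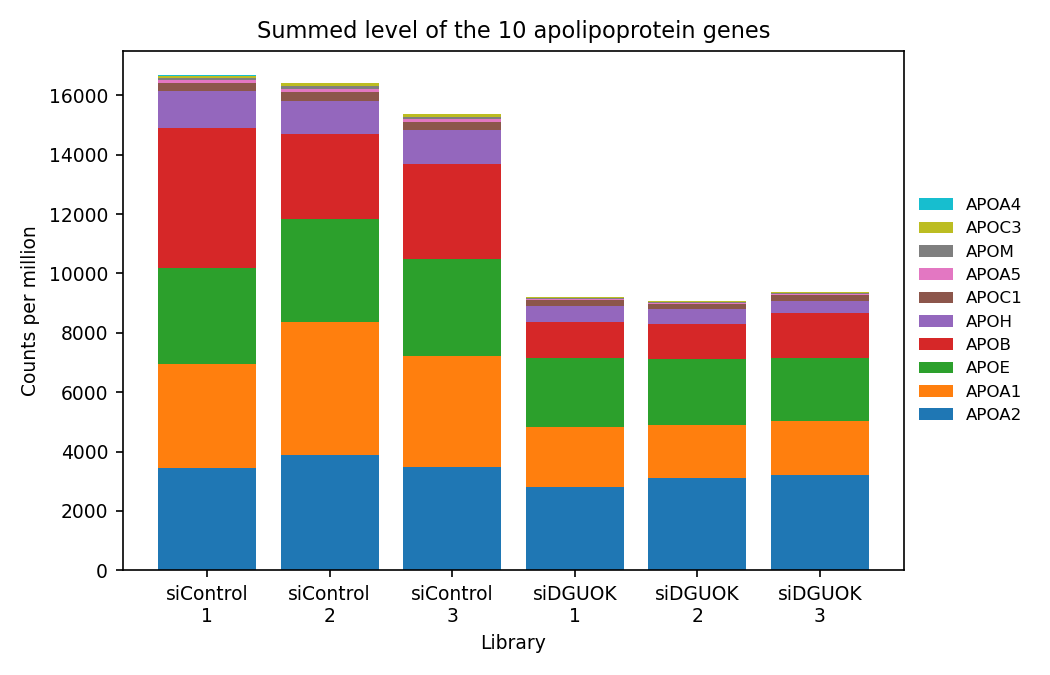
Stacked CPM of the 10 genes in each library. The bars reach 15367 to 16666 CPM in the siControl libraries and 9077 to 9379 CPM in the siDGUOK libraries; of the tall segments, that of APOA2 differs least between groups.

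APOB encodes the structural protein of very-low-density lipoproteins, of which each particle carries a single copy. Its mRNA was measured at 4724, 2877 and 3205 CPM in siControl 1, 2 and 3. In siDGUOK 1, 2 and 3 it was measured at 1209, 1178 and 1521 CPM. All siDGUOK libraries were lower, and siControl 1 was well above the other controls. The log2 fold change was -1.47 (SE 0.21), or 36.2% of the control level (edgeR quasi-likelihood test, Benjamini-Hochberg adjusted p = 0.00299). Without siControl replicate 1 the value was -1.21, and with both siDGUOK libraries that stand apart left out it was -1.25 and no longer called (edgeR quasi-likelihood test, Benjamini-Hochberg adjusted p = 0.170). The within-group spread of APOB was the widest of the abundant members, with a coefficient of variation of 27.3% in siControl. The same control library also had the highest ALB level, 18877 CPM against 14386 and 15355 CPM; its part in the APOB value was not tested beyond leaving the library out.

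Of the genes for assembly and secretion of APOB particles, 3 of 15 tested were called lower and 0 higher, with a median log2 fold change of -0.31. MTTP, which loads lipid onto APOB in the endoplasmic reticulum, fell from 209, 170 and 202 CPM in the siControl libraries to 69.5, 60.7 and 47.2 CPM in the siDGUOK libraries. The groups were far apart, with a log2 fold change of -1.71 (SE 0.13). CIDEB, a lipid droplet protein that takes part in particle lipidation, fell by 1.28 on the log2 scale. PLA2G12B, a catalytically inactive phospholipase homologue needed for lipidation, fell by 1.66. P4HB, the partner subunit of MTTP and the most abundant gene of the list, changed less: its level went from 2330 ± 14.3 to 1823 ± 46.3 CPM (SD, n = 3) and its log2 fold change of -0.35 did not reach the fold threshold.

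APOA1, the main protein of high-density lipoproteins and activator of LCAT, was measured at 3511, 4455 and 3743 CPM in siControl 1, 2 and 3. In siDGUOK 1, 2 and 3 it was measured at 2029, 1773 and 1818 CPM. Every knockdown library lay below every control. The log2 fold change was -1.06 (SE 0.08; edgeR quasi-likelihood test, Benjamini-Hochberg adjusted p = 4.01e-08). The gene overlaps APOA1-AS on the opposite strand by 1506 bases, and counting used featureCounts with a quality cutoff and otherwise default settings, which ignore strand and leave out reads that fall on more than 1 gene. APOA1-AS stood at 3.80 CPM on average in siControl and 1.91 CPM in siDGUOK, far below APOA1.

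APOA2, the second protein of high-density lipoproteins, was measured at 3432, 3896 and 3468 CPM in siControl 1, 2 and 3. In siDGUOK 1, 2 and 3 the levels were 2807, 3118 and 3205 CPM. The groups did not overlap, but the gap between the highest knockdown and the lowest control library was small. The log2 fold change was -0.24 (SE 0.07), under the fold threshold although the adjusted p was 0.0239 (edgeR quasi-likelihood test, Benjamini-Hochberg). By the same edgeR test with Benjamini-Hochberg adjustment, the adjusted p of APOA2 was above 0.05 without siControl replicate 2 (0.0836), siControl replicate 3 (0.0596) or siDGUOK replicate 1 (0.0991). Within each library the ratio of APOA1 to APOA2 counts was 1.02, 1.14 and 1.08 in siControl and 0.723, 0.569 and 0.567 in siDGUOK. These ratios of counts do not allow for the length of the genes, and per kilobase APOA2 stood above APOA1 in every library of both groups; the ratio was chosen after the values were seen and was not tested.

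The promoters printed here and below were picked after the search because they hold matches. That of APOA2 is the RefSeq entry for the 250 bases before the gene's start (GRCh38.p14, chr1:161223629-161223878, minus strand), written 5′ to 3′ along the gene's strand with a match to TGTTTNC in capitals, here on the opposite strand and beginning 42 bases before the start.
APOA2: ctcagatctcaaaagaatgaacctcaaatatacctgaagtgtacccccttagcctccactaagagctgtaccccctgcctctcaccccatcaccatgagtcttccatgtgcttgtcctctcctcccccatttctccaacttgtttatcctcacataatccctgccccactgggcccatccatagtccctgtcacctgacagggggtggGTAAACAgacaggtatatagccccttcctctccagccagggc

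APOC3, APOA5 and APOA4 lie beside APOA1 in a cluster on chromosome 11 that spans 48.3 kb. APOC3 inhibits lipoprotein lipase and slows hepatic uptake of triglyceride-rich particles. It was measured at 81.7, 94.5 and 90.6 CPM in siControl 1, 2 and 3 and at 17.98, 18.4 and 21.4 CPM in siDGUOK 1, 2 and 3. The knockdown libraries were close together, at 21.7% of the controls by the fitted value, and this was the deepest fall of the family: a log2 fold change of -2.20 (SE 0.14; edgeR quasi-likelihood test, Benjamini-Hochberg adjusted p = 1.29e-09), the 149th lowest of 14476 genes. The ratio of APOC3 to APOA1 counts, a pair of neighbours 7.92 kb apart by their starts, was 0.0233, 0.0212 and 0.0242 in siControl and 0.00886, 0.0104 and 0.0118 in siDGUOK, again without overlap and without a test.

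APOA5, a promoter of lipolysis by lipoprotein lipase, was measured at 90.6, 91.0 and 78.0 CPM in siControl 1, 2 and 3 and at 36.1, 36.3 and 31.3 CPM in siDGUOK 1, 2 and 3. Both groups were narrow and separate, with a log2 fold change of -1.33 (SE 0.13; edgeR quasi-likelihood test, Benjamini-Hochberg adjusted p = 3.74e-07). APOA5 and APOC3, which act in opposite directions on lipolysis, thus fell together. APOA4, mainly an intestinal apolipoprotein, was the rarest member. It was measured at 5.69, 16.5 and 13.9 CPM in siControl 1, 2 and 3 and at 4.18, 5.58 and 10.6 CPM in siDGUOK 1, 2 and 3, from 77 to 307 counts. The groups overlapped, siControl 1 being as low as the knockdown libraries and siDGUOK 3 reaching towards the controls. The log2 fold change of -0.82 (SE 0.39) was not called (edgeR quasi-likelihood test, Benjamini-Hochberg adjusted p = 0.171). It was called without siControl replicate 1 (-1.15, adjusted p = 0.0468) and without siDGUOK replicate 3 (-1.30, adjusted p = 0.0371), both by the same edgeR test with Benjamini-Hochberg adjustment. APOA4 also overlaps a long noncoding RNA on the opposite strand by 842 bases.

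Of the 8 tested neighbours of the chromosome 11 cluster, 0 were called lower and 1, TAGLN, was called higher. BUD13 and ZPR1, which follow APOA5 on one side, had log2 fold changes of 0.17 and 0.32, and SIK3 on the other side -0.17. TAGLN, an actin-binding protein whose start lies 362 kb from that of APOA1, stood at 17.6 ± 2.99 CPM in siControl and 31.9 ± 9.12 CPM in siDGUOK (SD, n = 3). Its call was lost without siDGUOK replicate 3.

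The APOA5 promoters of RefSeq with matches come next. Capitals mark AGGTCA, the core that nuclear receptors bind, on either strand. The first entry lies at chr11:116791880-116792129 and the second at chr11:116792421-116792670, both on the minus strand of GRCh38.p14.
APOA5 first entry: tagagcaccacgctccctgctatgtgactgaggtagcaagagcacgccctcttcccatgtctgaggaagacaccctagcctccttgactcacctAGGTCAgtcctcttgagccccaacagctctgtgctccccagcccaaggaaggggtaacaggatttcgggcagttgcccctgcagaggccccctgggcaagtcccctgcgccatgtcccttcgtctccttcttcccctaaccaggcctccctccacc
APOA5 second entry: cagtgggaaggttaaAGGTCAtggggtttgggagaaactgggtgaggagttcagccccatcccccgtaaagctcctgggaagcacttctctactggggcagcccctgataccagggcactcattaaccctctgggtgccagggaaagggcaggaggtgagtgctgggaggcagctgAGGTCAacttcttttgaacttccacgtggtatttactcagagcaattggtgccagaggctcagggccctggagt

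**Figure D4:**
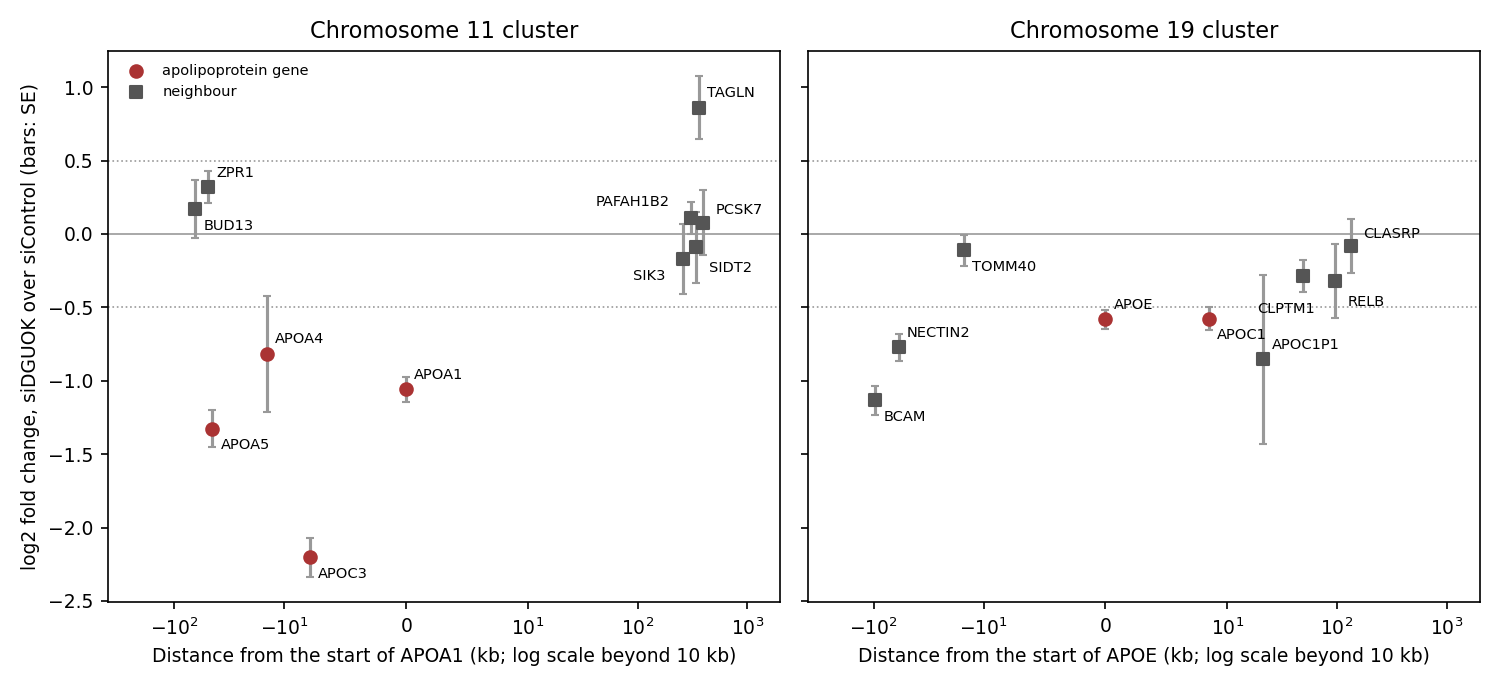
Log2 fold change with SE against distance from the start of APOA1 (left) and APOE (right), in kb, on an axis that is linear to 10 kb and logarithmic beyond; circles are apolipoprotein genes and squares their neighbours. APOA1-AS and APOC2, with SEs of 0.69 and 1.39, are not drawn. APOA5, APOC3 and APOA1 lie below -1, between neighbours at -0.17 (SIK3) to 0.86 (TAGLN). On chromosome 19, BCAM and NECTIN2 lie below APOE and APOC1.

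APOE and APOC1 lie in a cluster on chromosome 19, with starts 8.46 kb apart. APOE, the ligand through which remnant particles are taken up by receptors of the LDL receptor family, was measured at 3233, 3475 and 3262 CPM in siControl 1, 2 and 3. In siDGUOK 1, 2 and 3 it was measured at 2327, 2212 and 2120 CPM. Both groups were narrow and did not overlap; the log2 fold change was -0.58 (SE 0.07; edgeR quasi-likelihood test, Benjamini-Hochberg adjusted p = 3.59e-06). APOC1, an inhibitor of receptor uptake and of CETP, was measured at 269, 301 and 283 CPM in the siControl libraries and at 193, 186 and 193 CPM in the siDGUOK libraries. It fell by 0.58 on the log2 scale with an SE of 0.08 (edgeR quasi-likelihood test, Benjamini-Hochberg adjusted p = 3.31e-05), close to the value for APOE. The ratio of APOC1 to APOE counts stayed between 0.0827 and 0.0912 in all 6 libraries, and the difference of its log2 means between groups was 0.01. Its pseudogene APOC1P1, to which some APOC1 reads may also align, stood at 4.33 CPM in siControl and 2.38 CPM in siDGUOK, and an unclassified transcript overlaps APOC1 by 722 bases.

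Around this cluster 2 of 8 tested neighbours were called lower and 0 higher. BCAM, a laminin receptor, went from 334 ± 9.61 to 152 ± 25.1 CPM (SD, n = 3) and NECTIN2, a cell adhesion molecule, from 246 ± 24.2 to 144 ± 5.40 CPM (SD, n = 3). TOMM40, a mitochondrial import pore that lies between NECTIN2 and APOE, had a log2 fold change of -0.11 and overlapping groups.

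APOM, a carrier of sphingosine-1-phosphate on high-density lipoproteins, was measured at 70.8, 91.3 and 72.2 CPM in siControl 1, 2 and 3 and at 33.67, 40.21 and 35.004 CPM in siDGUOK 1, 2 and 3. The groups were separate and replicate 2 was the highest of each. The log2 fold change was -1.11 (SE 0.14; edgeR quasi-likelihood test, Benjamini-Hochberg adjusted p = 9.11e-06). APOM overlaps BAG6 on the opposite strand by 290 bases; BAG6 was not called and had a log2 fold change of 0.14. APOH, or beta-2-glycoprotein I, binds phospholipid and is the main antigen of antiphospholipid antibodies. It was measured at 1248, 1120 and 1152 CPM in siControl 1, 2 and 3 and at 545, 510 and 423 CPM in siDGUOK 1, 2 and 3. All knockdown libraries were below all controls, with a log2 fold change of -1.25 (SE 0.09; edgeR quasi-likelihood test, Benjamini-Hochberg adjusted p = 7.68e-09).

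The RefSeq promoter of APOM, a gene outside both clusters, also holds matches. Capitals mark CAAAGNNCA, an HNF4-like word, and TGTTTNC, a FOXA-like word, at 214 and 69 bases before the start, the second on the opposite strand. The entry is chr6:31655644-31655893 on the plus strand of GRCh38.p14.
APOM: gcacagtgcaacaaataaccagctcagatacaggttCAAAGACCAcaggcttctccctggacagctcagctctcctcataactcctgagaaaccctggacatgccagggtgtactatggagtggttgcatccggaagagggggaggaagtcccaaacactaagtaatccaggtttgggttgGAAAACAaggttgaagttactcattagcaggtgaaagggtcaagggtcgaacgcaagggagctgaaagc

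In all, 7 of the 10 genes matched RefSeq promoter entries, 10 entries together; APOA1, APOB and APOC3 had none. The 250 bases before each start were searched on both strands; 8 of the words searched are given here, of which the 4 marked above or named next were kept for display after a first look at the promoters. CAAAGNNCA occurred in 4.44% of 35116 promoters of that length and in 1 apolipoprotein gene, AGGTCA in 12.1% and 1 gene, TGTTTNC in 15.5% and 2 genes, and TTGCNNAA, a C/EBP-like word, in 9.05% and 0 genes. The other 4 words were CCAAT (32.0% of promoters, 2 of the genes, APOA5 and APOE), TATAAA (10.7%, 0 genes), TCACNCCAC (0.883%, 0 genes) and TTGCGCAA (0.131%, 0 genes). TTGCGCAA is a form of TTGCNNAA; no match in these promoters overlapped another. APOA4, APOC1 and APOH held none of the 8 words in these windows, which says only that the letters are absent there.

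Levels of different genes were compared as CPM per kilobase of exon. In siControl the order from the top was APOA2 (3808 ± 273; SD, n = 3), APOA1 (3561 ± 449), APOE (1543 ± 61.4), APOH (881 ± 50.2), APOB (243 ± 66.4), APOC1 (241 ± 13.4), APOC3 (105 ± 7.68), APOM (63.2 ± 9.24), APOA5 (42.9 ± 3.66) and APOA4 (8.17 ± 3.83). The ranges of APOA2 and APOA1 overlapped, as did those of APOB and APOC1, while all other neighbours in the order were separate. APOC1 was above APOB in siControl 2 (255 against 194) and siControl 3 (240 against 216). Only in siControl 1 was APOB the higher (319 against 229), and that library set their order by group mean. APOB, the highest of the 10 in CPM in siControl 1, ranked in the middle per kilobase. In siDGUOK, APOA2 (3220 ± 222 CPM per kilobase; SD, n = 3) stood apart from APOA1 (1709 ± 125). By group mean APOC1 (162 ± 3.30) was there above APOB (87.8 ± 12.8), and APOM (29.3 ± 2.79) passed APOC3 (22.6 ± 2.22). Neighbours in the siDGUOK order did not overlap. With the length of the longest transcript in place of the union of exons, APOC1 ranked above APOB in siControl too, and APOE above APOA1 in siDGUOK.

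The other genes around lipoproteins were counted by list, and no list was tested for a difference from the 10 genes. Over all genes tested, the shares to set beside the counts of every list were 6.9% called lower and 7.14% called higher. Among apolipoproteins outside the 10, 1 of 12 tested was called lower and 0 higher, with a median log2 fold change of -0.10. CLU, also named apolipoprotein J, an extracellular chaperone, fell from 468, 491 and 435 CPM in siControl to 98.7, 84.0 and 86.4 CPM in siDGUOK, a larger fall than that of APOC3 by the fitted value (-2.37, SE 0.09). APOL1, the most abundant of that list, had a log2 fold change of -0.34 and was not called. Neither LPA nor SAA1 reached 1 CPM in any library.

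Plasma lipases and transfer proteins had 7 of 14 tested genes called lower and 0 higher, with a median of -0.46. PLTP, the phospholipid transfer protein, and PCSK6, a proprotein convertase, had log2 fold changes of -1.01 and -0.52. PCSK6 lost its call without siControl replicate 1, siDGUOK replicate 2 or siDGUOK replicate 3, where its fold change came under the threshold. The same happened with DESeq2 and shrunken fold changes in place of edgeR (-0.496). Leaving out siDGUOK replicate 2, siControl replicate 1 or siControl replicate 2 left 3, 4 and 4 genes of the list called lower, and leaving out siDGUOK replicate 2 brought 1 call higher. Lipoprotein receptors had 6 of 13 called lower and 1 higher, with a median of -0.35. SORL1, a sorting receptor, SCARB1, the receptor for high-density lipoproteins, and LRPAP1, a chaperone of the receptor family, had log2 fold changes of -1.05, -0.65 and -0.60. VLDLR rose by 0.65 on the log2 scale, a call lost without siControl replicate 1, siControl replicate 3 or siDGUOK replicate 1. Of 5 lipid efflux transporters tested, 1 was called lower, ABCA1, which loads lipid onto APOA1, and 0 higher; ABCA1 fell by 0.59, and the median of the list was 0.04.

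**Figure D5:**
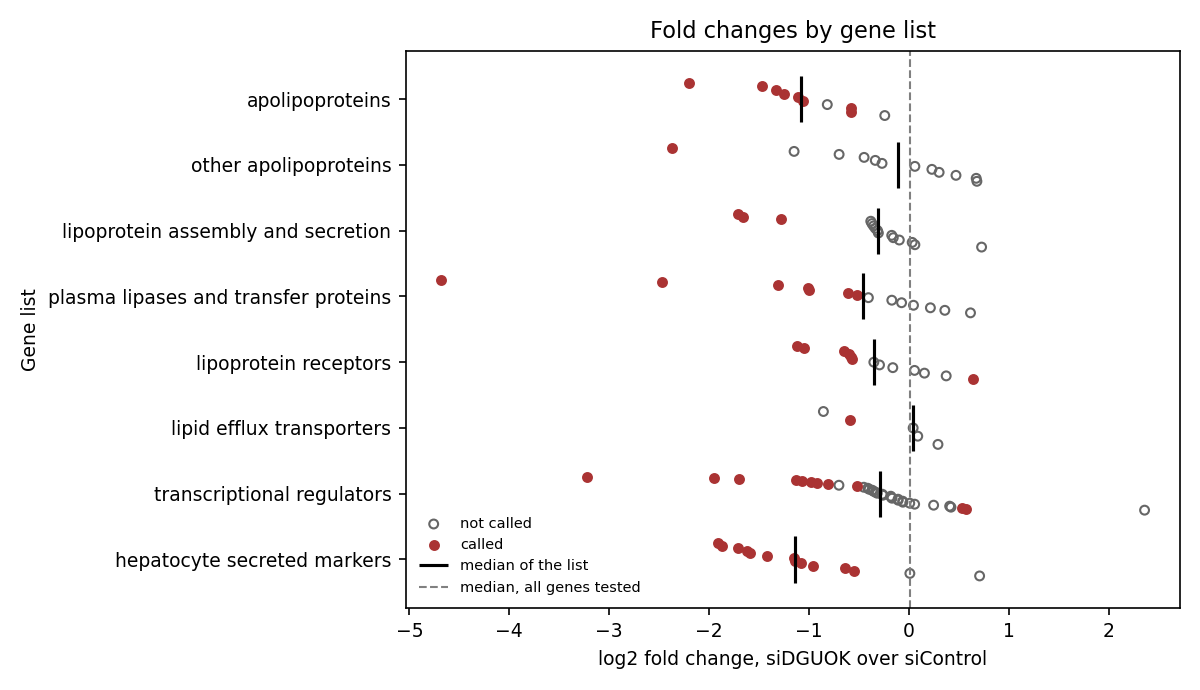
Log2 fold changes of the tested genes of each list (filled, called; open, not called), with the list's median as a black line and the median of all genes tested as a dashed line. The medians of the 10 apolipoproteins and of the secreted hepatocyte proteins, -1.08 and -1.14, lie lowest.

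Among transcriptional regulators of these genes, 9 of 34 tested were called lower and 2 higher, with a median of -0.29. CEBPA, a C/EBP factor of mature hepatocytes, stood at 117, 119 and 130 CPM in siControl and 62.8, 48.8 and 55.6 CPM in siDGUOK, a log2 fold change of -1.13 (SE 0.11). NR1H4, the bile acid receptor, went from 24.9 ± 7.24 to 7.67 ± 0.588 CPM (SD, n = 3). HNF4A, a nuclear receptor of hepatocytes, had a log2 fold change of -0.52, just past the threshold, and was not called without siControl replicate 1 (-0.46) or siDGUOK replicate 3 (-0.47). ESRRA and PPARD rose by 0.58 and 0.53. ESRRA lost its call without siControl replicate 2, and PPARD without siControl replicate 3 or siDGUOK replicate 3. PPARD also lost it with DESeq2 and shrunken fold changes (0.485). Of the FOXA family FOXA1 fell by 0.92, while FOXA2 and FOXA3, with log2 fold changes of -0.18 and 0.41, were not called (FOXA3 was called higher without siDGUOK replicate 2, at 0.57). CEBPB, another C/EBP factor, had a log2 fold change of 0.25 and was not called either; these 4 genes were named after their values were seen.

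Of the genes of other secreted hepatocyte proteins, 12 of 14 were called lower and 0 higher, with a median of -1.14. FGA, FGB and VTN, which encode fibrinogen chains and vitronectin, had log2 fold changes of -1.87, -1.91 and -1.71. ALB went from 16206 ± 2363 to 5398 ± 1060 CPM (SD, n = 3) and TF, transferrin, from 12126 ± 478 to 6227 ± 887 CPM (SD, n = 3). SERPINA1, the most abundant uncalled gene of the list, stood at 7791, 8215 and 7442 CPM in siControl and 8537, 7398 and 7672 CPM in siDGUOK, with overlapping groups and a log2 fold change of 0.01. The summed level of the list was 59974, 56536 and 54632 CPM in siControl 1, 2 and 3 and 33942, 29485 and 27296 CPM in siDGUOK 1, 2 and 3, with ALB the most abundant gene and none at 0.

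Markers of other cell types were read beside these values, and their part in the apolipoprotein result was not tested. Fibroblast markers summed to 12.2, 15.1 and 10.3 CPM in siControl and 42.6, 56.8 and 21.5 CPM in siDGUOK; of 3 tested, COL1A1, the most abundant, rose from 1.17 ± 0.759 to 19.4 ± 1.79 CPM (SD, n = 3) and PDGFRB had a log2 fold change of -1.03, a call lost on leaving out any library but siDGUOK replicate 2. The number of fibroblast markers called higher was 2 without siControl replicate 1 or siControl replicate 3 and 4 without siDGUOK replicate 3. DCN, LUM and PDGFRA were at 0 in all siControl libraries. In siDGUOK 1, 2 and 3 DCN stood at 1.14, 1.59 and 0 CPM and LUM at 0.163, 1.23 and 0 CPM. PDGFRA stood there at 0, 0.919 and 0 CPM. COL1A2 and COL3A1 averaged 0.250 and 0.0179 CPM in siControl. Their levels in siDGUOK 1, 2 and 3 were 6.73, 10.4 and 0 CPM, and 8.04, 15.6 and 0.412 CPM. These values were thus higher in the siDGUOK libraries that stood apart than in siDGUOK 3. Endothelial markers summed to 1.66, 1.40 and 2.30 CPM in siControl and 4.51, 59.1 and 4.03 CPM in siDGUOK, with VWF the most abundant, CLDN5 at 0 and 0 of 3 tested called, though 1 was called higher without siControl replicate 3, siDGUOK replicate 1 or siDGUOK replicate 3. Leukocyte and macrophage markers summed to 1622 to 1716 CPM in siControl and 1751 to 1912 CPM in siDGUOK; LYZ made up nearly all of it, MARCO was at 0, CD3E did not pass 3.62 CPM in any library, and 0 of 6 were called, or 1 higher without siControl replicate 2. Cholangiocyte markers summed to 1711, 1841 and 1901 CPM in siControl and 3548, 3613 and 3734 CPM in siDGUOK, with 2 of 5 called higher and 1 lower: KRT19, the most abundant, SPP1 and EPCAM had log2 fold changes of 1.497, 0.83 and -0.83, and none was at 0 throughout. Enterocyte markers summed to 452, 489 and 456 CPM in siControl and 351, 337 and 348 CPM in siDGUOK, nearly all of it VIL1, with LCT at 0 and 0 of 2 called.

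The genes whose levels over the 6 libraries most resembled the apolipoprotein mean were sought among 9219 others with a mean of at least 10 CPM. By Pearson's r of log2(CPM + 1) with the mean centred profile they were ACSS2 (0.998), MVD (0.998), ECHS1 (0.997), CALR (0.996) and ATP7B (0.996). ACSS2 makes acetyl-CoA from acetate, MVD is an enzyme of the mevalonate pathway, ECHS1 a hydratase of mitochondrial fatty acid oxidation, CALR a chaperone of the endoplasmic reticulum and ATP7B the hepatic copper exporter. All were lower in siDGUOK, with log2 fold changes of -0.99, -0.93, -0.55, -0.70 and -0.91. Such an r over 6 libraries in 2 separate groups mostly restates the difference between the groups.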

How the data were processed

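Per the labels and the study's methods, the authors removed structural RNA, adapter and spike-in reads, aligned the remaining paired-end Illumina reads to GRCh38 with STAR, took low-complexity reads out of the alignments by PRINSEQ scores and counted the rest per Gencode gene with featureCounts, with a minimum Phred quality of 10 and otherwise its defaults, which ignore strand; the submitters' processing notes name Bowtie 1.1.2, STAR 2.6.1 and featureCounts 1.6.5. The values analysed are the raw read counts per gene that the authors deposited. The library kit and the model of sequencer are not given in the sources used here.

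From these counts, genes were kept with edgeR 4.0.16 (filterByExpr, minimum count 10), scaled by TMM and tested in all 6 libraries with a robust quasi-likelihood F test and Benjamini-Hochberg adjustment over 14476 genes; DESeq2 1.42.0 was an alternative (R 4.3.3; tables and figures in Python 3.11.15 with pandas 2.3.3 and matplotlib 3.10.9). The SE is taken from the F statistic as the absolute log2 fold change over its root. Gene lengths, coordinates and overlaps came from Gencode 44, later than the release used for counting. The steps were tested on simulated counts. Replicates of a group differed by more than sampling noise in every pair. Levels per length were first computed as TPM and were changed to TMM-scaled CPM per kilobase after it was seen that T cell receptor segments, which are very short, inflate the TPM total of siDGUOK replicate 1; the order by TPM is an added alternative, and the filter on mean TPM still uses it. The words searched in promoters, of which 8 are given, the 4 kept for display and the promoters printed were chosen after a first look at these promoters. The ratios were chosen after the values were seen; 5 were computed and 3 are given. The members and lists were chosen with earlier results of these data known. Within lists, every called gene is named if there were up to 5, otherwise up to 3 with the smallest p in each direction, with abundant genes; FOXA1 and all uncalled genes, such as SERPINA1 and TOMM40, were picked with their values in view. The alternatives tried were other normalizations, filters, thresholds, DESeq2, a replicate block and leaving out libraries.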

Additional observations from a re-analysis of the deposited data

How the results depend on the processing

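The same 8 apolipoprotein genes were called lower, and 0 higher, with RLE or upper-quartile normalization, library sizes without the 10 genes, no count filter, mean TPM above 10, and DESeq2 with or without shrinkage. Of all genes tested, 14.05%, 14.09% and 14.09% were called with the normalizations and library sizes, in that order. The share was 8.80% with no count filter and 19.5% with mean TPM above 10. It was 8.65% with DESeq2 and 7.51% with DESeq2 and shrinkage. APOA2 (log2 fold change -0.24) was added with no fold change threshold, where 19.6% of all genes tested were called. Leaving out 1 library gave 8 or 9 of the 10 and 1704 to 1935 calls in the table in place of 2032. Those calls were 11.1% to 12.7% of all genes tested in these fits. There APOA4, called without siControl replicate 1 or siDGUOK replicate 3, ranged from -1.30 to -0.50. With siDGUOK replicates 1 and 2 both left out, chosen after seeing the data, 7 of the 10 and 1711 genes were called; APOB (-1.25) was not, and APOA4 stood at -0.18. No apolipoprotein gene changed sign. Uncalled genes near 0 did: with 1 library left out SERPINA1 ranged from -0.0558 to 0.0553 and SIK3 from -0.490 to 0.0638, and without both siDGUOK libraries SERPINA1 was -0.0309 and BUD13 -0.11. Of other named genes' 780 alternative values, 23 lost and 4 gained a call (without both libraries PLA2G12B, ABCA1, VLDLR and ECHS1 lost theirs), and 47 of 448 counts over the lists moved by more than 1.5 times. The difference in share was -0.682 percentage points without mitochondrially encoded genes, and the order per length was the same by TPM, an alternative also chosen after seeing the data. Of the 20 ranks per length over both groups, 18 stayed without siControl replicate 1 and 16 with the length of the longest transcript. Deviations from the group mean were nearly uncorrelated between same-numbered libraries (0.0240, 0.0165 and -0.0023). The labels give no pairing, and these values cannot show that there was none. With replicate number as a block 2078 genes were called, 14.4% of all genes tested, the 8 apolipoprotein genes among them.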
